A study of Mus musculus with 6 samples.

Results

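Lyve1, Folr2, Mrc1, Cbr2, F13a1, Cd163, Stab1, Pf4 and Fcna are markers of the macrophages that live in the adventitia, the outer coat of an artery. These 9 genes were chosen by name, from 36557 gene rows. Each had 1 row, and all 9 passed the filter on low counts. RNA of aortic arch and thoracic aorta had been sequenced in 3 Apoe-/- MiR26b-/- mouse samples (knockouts) and 3 Apoe-/- control samples, all taken after 4 weeks of a high-fat diet. Both groups therefore lacked apolipoprotein E, which clears cholesterol-rich lipoproteins from blood, and differed by the allele of the microRNA gene Mir26b. The age and sex of the mice, the cells in which Mir26b was deleted and whether each library came from its own animal are not given in the sources used here. The p-values below therefore measure the spread between these libraries.

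Arteries hold macrophages of more than one origin. Resident cells of the Lyve1 and Folr2 type seed the adventitia early in life, renew themselves under colony-stimulating factor 1 and take up hyaluronan, glycoproteins and haemoglobin through endocytic receptors. In atherosclerosis, monocytes that carry Ccr2 enter the intima and become lipid-laden foam cells rich in Cd68, Itgax and Trem2. The comparison asked whether the resident markers were higher together with the genes of recruited macrophages. In bulk RNA, more cells of a type and more RNA per cell cannot be told apart.

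The libraries held between 51634139 and 54817547 estimated counts. CPM below are counts scaled to library size with TMM factors. Smooth muscle genes, 6 of them, summed to between 21432 and 25411 CPM in knockouts and between 31632 and 36359 CPM in controls, so the tissue label held. No check of the deletion was possible here, since 0 rows of the table name a microRNA gene. Knockout replicate 3 stood apart from the other knockouts in macrophage genes, which bears on every result below. The RNA of fat around the vessel also differed within groups. Relative to the control mean, the median log2 level of the 8 brown fat genes was -2.18, -1.57 and 0.48 in knockout replicates 1, 2 and 3, and 1.03, 0.09 and -1.10 in control replicates 1, 2 and 3.

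The deleted microRNA and the member that carries its seed match are shown because they link the genotype to the genes by sequence. Capitals mark the seed, bases 2 to 8 of the microRNA, or the bases of the site that pair with it and the A beside them. MiR-26b-5p lies at chr1:74394324-74394344 on the plus strand, and miR-26a-5p, made from 2 other loci, has the same seed (RefSeq, GRCm38).
miR-26b-5p: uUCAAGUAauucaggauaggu
miR-26a-5p: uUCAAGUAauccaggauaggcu
Lyve1 site: ttccatttttTACTTGAAttacaggacc
The Lyve1 site is an 8-base match in the 3′ UTR of the transcript Lyve1-201. The whole printed stretch around it lies at chr7:110851363-110851390 on the minus strand of GRCm38 (GENCODE M21). The longest 3′ UTRs of the other 8 members, between 123 bases in Pf4 and 1587 bases in F13a1, held no match of 7 or 8 bases. Among tested rows with a 3′ UTR, 20.9% held one (3369 of 16142). A match is a description of letters and does not show that the microRNA binds there.

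Mrc1 alone among the 9 markers passed the test across all genes. It encodes the mannose receptor, which takes up glycoproteins and collagen fragments, and it roughly followed the general macrophage receptor gene Csf1r. The other 8 moved little: their log2 differences lay between -0.36 for Fcna and 0.49 for Folr2. Cd68, which encodes a lysosomal protein abundant in recruited macrophages, was 6.02-fold higher. Over 17392 tested rows (quasi-likelihood test of edgeR, p adjusted by Benjamini-Hochberg, threshold 0.05), 1 of 9 members was higher and 0 were lower, where 6.5% of all tested rows were higher and 3.84% lower. At an unadjusted p under 0.05, 5 members were higher and 1 was lower, where 17.5% of rows were higher and 13.2% lower. DESeq2 called 5 members higher (Folr2, Mrc1, F13a1, Stab1 and Pf4) and Cbr2 lower. But it also called 13% of rows higher and 8.46% lower, shares taken over 16037 rows. The median log2 difference was 0.29 over the 9 members and -0.0033 over all tested rows.

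**Figure D1:**
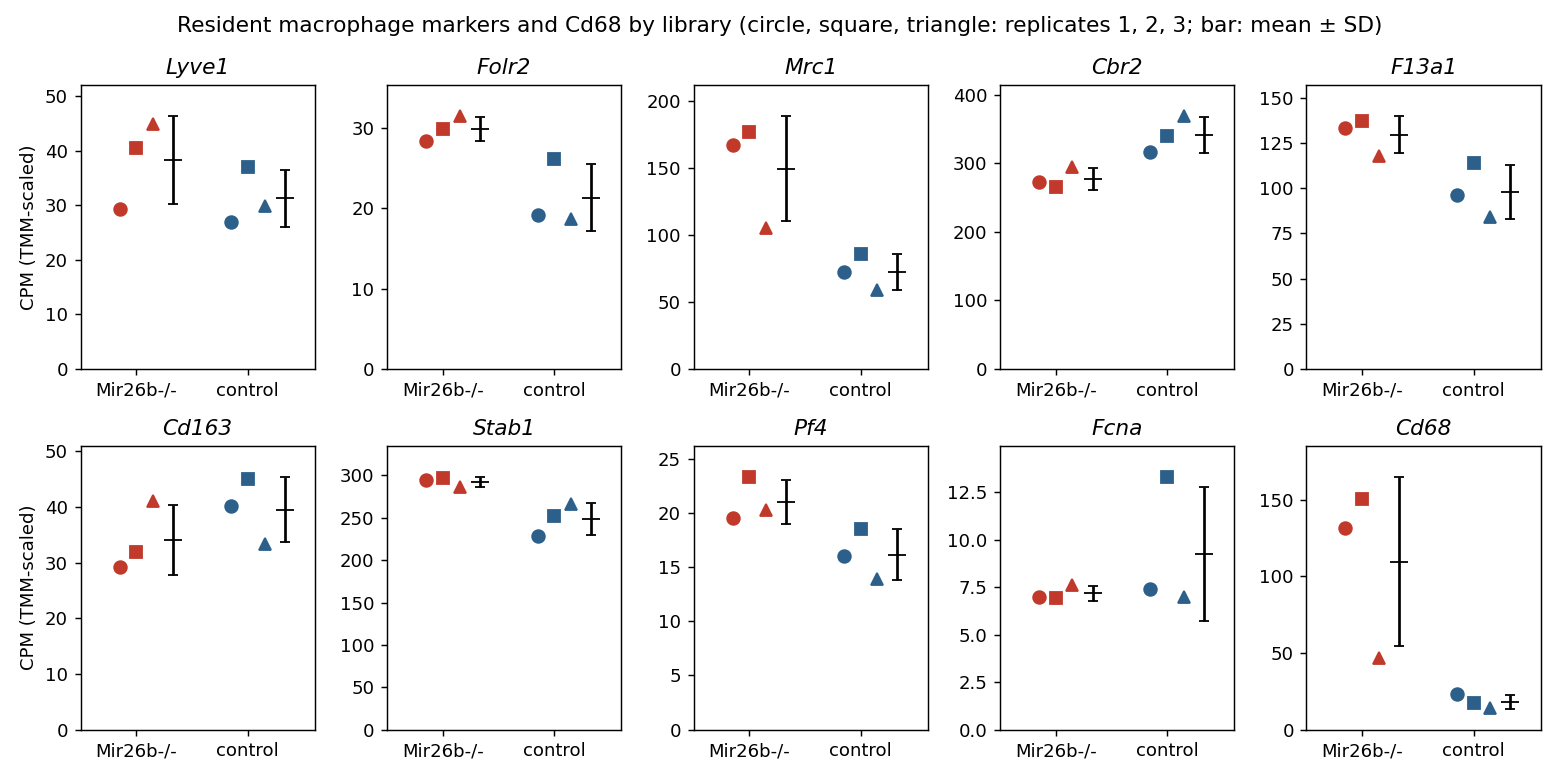
TMM-scaled CPM (linear axis from 0) of the 9 resident markers and Cd68 in each library; red marks knockouts, blue marks controls, shapes give the replicate and bars give mean ± SD (n = 3). Cd68 separated the groups widely, with knockout replicate 3 at 46.8 CPM below the other knockouts, while in Folr2 this library was the highest of all, at 31.4 CPM.

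Among the endocytic receptors, Mrc1 (ENSMUSG00000026712, chromosome 2, 14229392 to 14332057, plus strand) stood at 167, 177 and 105 CPM in knockout replicates 1, 2 and 3, against 72.1, 85.5 and 58.9 CPM in control replicates 1, 2 and 3. All knockouts lay above all controls, and knockout replicate 3 was the nearest to them. It rose 2.07-fold, a log2 difference of 1.05 (SE 0.22, edgeR adjusted p = 0.039). The call was lost without any library other than knockout replicate 3, with log2 differences between 0.91 and 1.18 and edgeR adjusted p between 0.0844 and 0.145. With any 1 of those libraries left out, edgeR called at most 52 rows higher and 22 lower, of 17638 or more tested rows. Adding the level of fat genes to the model gave a log2 difference of 0.89 with an edgeR adjusted p of 0.127. That model called 133 rows higher and 117 lower, of 17392.

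Stab1 (ENSMUSG00000042286, chromosome 14, 31139013 to 31168641, minus strand) encodes stabilin-1, a clearance receptor of macrophages and sinusoidal endothelium. Its level was 294, 297 and 286 CPM in knockouts and 229, 252 and 266 CPM in controls. The groups did not overlap and the knockouts were tightly grouped, with the highest 1.04 times the lowest. The log2 difference of 0.23 (SE 0.07) had an edgeR adjusted p of 0.0767, and a 95% interval of the fold between 1.05 and 1.32. On log2(TPM + 1) values limma called it, with a log2 difference of 0.38 and an adjusted p of 0.0325.

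Cd163 (ENSMUSG00000008845, chromosome 6, 124304656 to 124330527, plus strand) encodes the scavenger receptor for haptoglobin bound to haemoglobin. It stood at 29.1, 31.9 and 41.1 CPM in knockouts, against 40.1, 45.0 and 33.4 CPM in controls. The ranges overlapped: knockout replicate 3 was above control replicates 1 and 3. Its log2 difference was -0.21 (SE 0.16, edgeR adjusted p = 0.403), with a 95% interval of the fold between 0.663 and 1.12. Without knockout replicate 3 the value was -0.37, with an edgeR adjusted p of 0.0737.

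The surface receptors that give this macrophage type its name differed less than Mrc1. Folr2 (ENSMUSG00000032725, chromosome 7, 101839988 to 101857194, minus strand), the folate receptor beta gene, had 28.4, 29.9 and 31.4 CPM in knockouts, against 19.2, 26.2 and 18.7 CPM in controls. The groups did not overlap, and control replicate 2 came within a few CPM of the knockouts. The log2 difference was 0.49 (SE 0.14, edgeR adjusted p = 0.0686), a fold of 1.40 with a 95% interval between 1.12 and 1.76. Knockout replicate 3 was the highest library in Folr2 and the lowest knockout in Cd68.

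Lyve1 (ENSMUSG00000030787, chromosome 7, 110850607 to 110863239, minus strand) encodes a hyaluronan receptor of resident macrophages and of lymphatic endothelium. Its level was 29.3, 40.6 and 44.9 CPM in knockouts, against 26.9, 37.1 and 29.9 CPM in controls. The groups overlapped, with knockout replicate 1 below control replicates 2 and 3. Lyve1 differed by 0.29 on the log2 scale (SE 0.18, edgeR adjusted p = 0.333), and the 95% interval of the fold ran between 0.903 and 1.66. This is the member with the miR-26 seed match printed above.

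Lymphatic endothelium also makes Lyve1. Of 9 tested genes of this cell type 3 rose and 1 fell, with a median log2 difference of 0.94. Ccl21a, the lymphatic chemokine gene, rose 4.32-fold (edgeR adjusted p = 0.0161), although near-identical copies can share its reads. Flt4, the lymphatic growth factor receptor gene, rose 1.46-fold (0.0343), and Itga9, an integrin gene also used by other cells, fell to 597 CPM in knockouts, against 903 CPM in controls (0.0304). Prox1, the transcription factor gene that defines these cells and that was singled out after its values were seen, had 2.26, 2.85 and 3.64 CPM in knockouts and 1.59, 1.54 and 1.18 CPM in controls. Both Prox1 and Lyve1 were highest in knockout replicate 3 and lowest among knockouts in replicate 1. Ccl21a, at 31.1, 51.3 and 36.3 CPM in knockouts, was instead highest in replicate 2. So was the median log2 level of the list over the control mean, at 0.52, 0.92 and 0.78. Among controls Prox1 was highest in replicate 1 and Lyve1 in replicate 2. Summed over the list the level was between 751 and 835 CPM in knockouts and between 956 and 1090.2 CPM in controls, most of it Itga9. The part of lymphatic cells in the Lyve1 level was not tested.

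Among the secreted products, Pf4 (ENSMUSG00000029373, chromosome 5, 90772435 to 90773383, plus strand) encodes a chemokine known from platelets that resident macrophages also make. It stood at 19.5, 23.3 and 20.2 CPM in knockouts, against 16.1, 18.5 and 13.9 CPM in controls. The groups did not overlap, but knockout replicate 1 was close to control replicate 2. Pf4 differed by 0.38 on the log2 scale (SE 0.12, edgeR adjusted p = 0.095). Of 9 tested platelet genes 0 rose by edgeR (1 at an unadjusted p under 0.05, and 1 by DESeq2) and 1 fell, Itgb3, with 160.5 CPM in knockouts and 234 CPM in controls on average (edgeR adjusted p = 0.0328). The platelet receptor gene Gp9, singled out after its values were seen, averaged 0.397 CPM in knockouts and 0.437 CPM in controls. Clec1b, a platelet lectin receptor gene also made by some macrophages, averaged 4.11 CPM in knockouts and 1.60 CPM in controls without overlap (2.57-fold, edgeR adjusted p = 0.0746). Itga2b, the platelet integrin gene, averaged 7.16 CPM in knockouts and 5.04 CPM in controls (0.205). The list summed to between 168 and 191 CPM in knockouts and between 227 and 273 CPM in controls. Itgb3 lay far above every other tested gene of the list, so this sum mainly follows Itgb3. The cells that made the Itgb3 RNA were not tested. The part of platelets in the Pf4 level was not tested.

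F13a1 (ENSMUSG00000039109, chromosome 13, 36867178 to 37050244, minus strand) encodes the transglutaminase subunit of coagulation factor XIII. It had 134, 137 and 118 CPM in knockouts, against 96.5, 114 and 84.1 CPM in controls. The groups were separate, with knockout replicate 3 and control replicate 2 nearly touching. F13a1 differed by 0.40 on the log2 scale (SE 0.12, edgeR adjusted p = 0.0765). Its profile over the libraries lay closest of all member pairs to that of Pf4, at a root mean square distance of 0.0764 in log2 CPM after each gene was centred.

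Fcna (ENSMUSG00000026938, chromosome 2, 25624666 to 25628030, minus strand) encodes ficolin-A, a lectin that starts the complement cascade. Its level was 7.00, 6.91 and 7.63 CPM in knockouts and 7.43, 13.3 and 6.96 CPM in controls. Control replicate 2 alone set the difference: with it the log2 difference was -0.36 (SE 0.25, edgeR adjusted p = 0.382), and without it -0.0054. The same library held the most B cell and lymph node RNA, with a median log2 level of 1.88 over the control mean for 8 such genes, which were between -1.64 and -0.71 in the other libraries. Of the 8 genes 0 passed the test between groups by edgeR, 3 were lower at an unadjusted p under 0.05 and 2 by DESeq2, and their part in the Fcna value was not tested.

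Cbr2 (ENSMUSG00000025150, chromosome 11, 120729489 to 120732114, minus strand) encodes a carbonyl reductase known chiefly from lung. Its level was 272, 265 and 295 CPM in knockouts, against 317, 340.1 and 369 CPM in controls. It was the only member with all knockouts below all controls. Cbr2 differed by -0.30 on the log2 scale (SE 0.08, edgeR adjusted p = 0.0559). Airway genes looked at after the values were seen were near 0: Scgb1a1, the club cell secretory protein gene, lay between 1.62 and 2.46 TPM in knockouts and between 0 and 3.29 TPM in controls. The surfactant gene Sftpc was at most 0.207 TPM in knockouts and 0.764 TPM in controls. Smooth muscle genes were also lower in all knockouts. The median log2 level of 6 such genes over the control mean was -0.50, -0.60 and -0.35 in knockout replicates 1, 2 and 3. In control replicates 1, 2 and 3 it was -0.07, -0.07 and 0.14. The part of smooth muscle or other cells in the Cbr2 level was not tested.

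In all, 5 members had every knockout above every control, 1 had every knockout below, and 3 overlapped. Of all tested rows 18.9% had every knockout above and 17.2% every knockout below. Reads can be split with related genes. Folr1 had between 8.09 and 11.1 estimated counts in knockouts and between 8.16 and 16.2 in controls, and Fcnb had 0 in all libraries. Stab2 had between 115 and 322 estimated counts in knockouts and between 26.9 and 46.8 in controls. Cbr3 had between 657 and 862 in knockouts and between 506 and 583 in controls. For Cd163l1 the values were between 114 and 250 in knockouts and between 27.5 and 51.3 in controls. Mrc2 lay between 6483 and 8852 in knockouts and between 6127 and 6301 in controls. Ppbp overlapped, between 50.5 and 190 in knockouts and between 28.8 and 150 in controls. The part of shared reads in the member levels was not tested.

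Levels between genes are compared on TPM, which takes account of transcript length. Cbr2 was the most abundant member at 534 ± 36.5 TPM in knockouts and 643 ± 48.6 TPM in controls (SD, n = 3 each), several times above the next gene. Stab1 followed, with 103 ± 6.49 TPM in knockouts and 78.7 ± 1.55 TPM in controls, and then Pf4, with 93.5 ± 9.17 and 71.2 ± 10.3 TPM in the same groups. Stab1 and Pf4 were within their spread of each other in both groups. Folr2 averaged 63.8 TPM in knockouts and 44.4 TPM in controls. F13a1 averaged 53.0 TPM in knockouts and 39.3 TPM in controls, within the spread of Folr2 in controls only. Mrc1 averaged 45.5 ± 12.2 TPM in knockouts and 21.4 ± 4.01 TPM in controls, so that its own spread reached F13a1 in knockouts and Lyve1 in controls. Lyve1 averaged 24.5 TPM in knockouts and 20.9 TPM in controls. Cd163 averaged 13.8 TPM in knockouts and 15.8 TPM in controls, above Fcna, the least abundant member, at 10.3 TPM in knockouts and 12.5 TPM in controls. The order of the 9 genes was the same in both groups.

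**Figure D2:**
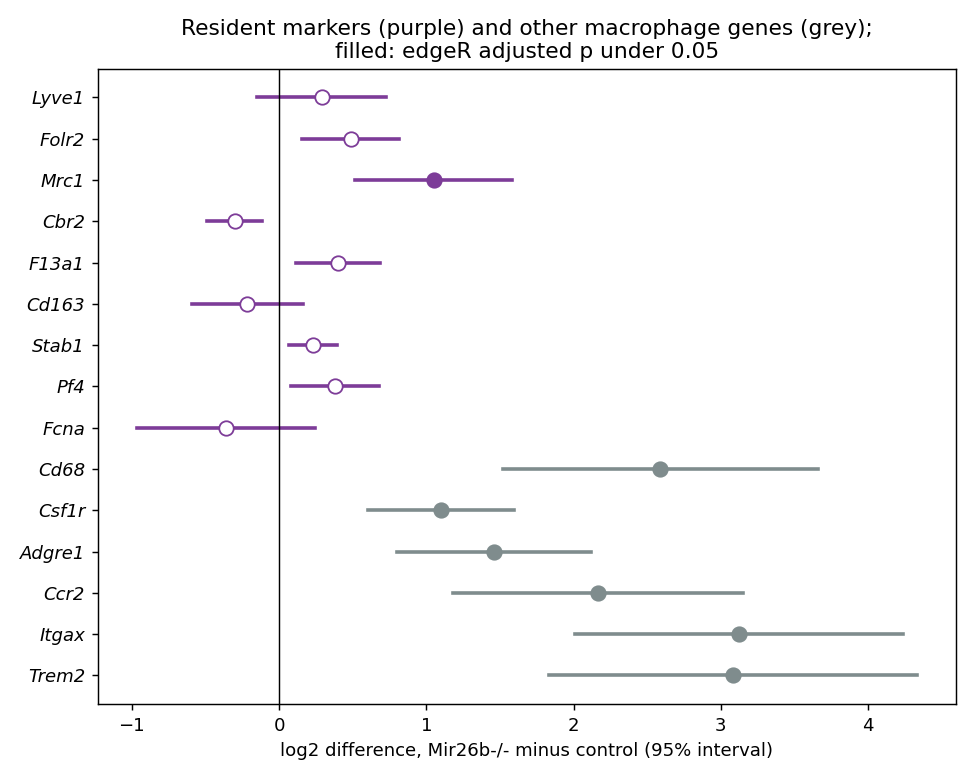
Log2 difference of knockouts minus controls with 95% intervals from edgeR's quasi-likelihood fit, for the 9 resident markers (purple) and 6 other macrophage genes (grey); filled points have an adjusted p under 0.05. The intervals of the 8 uncalled markers end below that of Cd68, which starts at 1.52, and that of Mrc1 ends at 1.58.

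Most genes of recruited and general macrophages differed by far more. Cd68 (ENSMUSG00000018774, chromosome 11, 69664213 to 69666153, minus strand) had 131, 150.3 and 46.8 CPM in knockouts, against 23.2, 17.2 and 14.1 CPM in controls. All knockouts were above all controls, and within the knockouts the highest was 3.21 times the lowest, against 1.11 times for Folr2. The log2 difference was 2.59 (SE 0.45, edgeR adjusted p = 0.0304), a fold with a 95% interval between 2.87 and 12.7. Without any 1 library other than knockout replicate 3 the call was lost, with folds between 4.90 and 6.98 and edgeR adjusted p between 0.0873 and 0.124. Those fits called at most 52 rows higher and 22 lower among all tested rows. The 95% intervals of Lyve1, Folr2, Cbr2, F13a1, Cd163, Stab1, Pf4 and Fcna all ended at or below 1.76-fold, under the lower bound of Cd68. The interval of the general gene Csf1r ran between 1.52-fold and 3.02-fold. Those of Folr2, Lyve1, F13a1 and Pf4 reached into it, so the intervals do not separate these markers from Csf1r.

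In the list of recruited and plaque macrophages, 13 of 20 tested genes rose and 0 fell, with a median log2 difference of 2.67. Itgax, the CD11c gene of foam and dendritic cells, rose 8.73-fold (edgeR adjusted p = 0.0245). Mmp12, which encodes macrophage elastase, rose 11.4-fold (0.028), and Trem2, a receptor gene for lipids, rose 8.47-fold (0.03). Trem2 had a second row with the same values. Ccr2, the receptor that brings monocytes into tissue, rose 4.49-fold (0.0326). Among general macrophage genes 17 of 18 rose and 1 fell, with a median of 1.94. Csf1r rose 2.14-fold and Adgre1, which encodes F4/80, 2.75-fold (both 0.0325), and Fcgr1, Ctss, Cx3cr1 and Aif1 rose between 3.80-fold and 8.40-fold. The gene that fell, named for that reason after its values were seen, was Mertk, the receptor for apoptotic cells, with 107 ± 3.47 CPM in knockouts and 127 ± 6.88 CPM in controls (SD, n = 3 each, edgeR adjusted p = 0.0443). Without knockout replicate 3, edgeR called 16 recruited genes higher, and 17 general genes higher and 1 lower. Without any 1 other library it called 0 genes in either list, and at most 52 rows higher and 22 lower among all tested rows.

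Other genes of resident macrophages, 22 from a separate list, lay between these patterns. Of them 6 rose and 0 fell, with a median of 0.34, near the 0.29 of the 9 markers. Selenop, the selenium carrier gene, rose to 950 CPM in knockouts, against 679 CPM in controls (1.40-fold, edgeR adjusted p = 0.0255). The transcription factor gene Maf rose 1.25-fold (0.0299) and the chemokine gene Ccl8 rose 5.89-fold (0.0322). Fibroblasts and other cells also express Selenop and Maf, and the part of those cells was not tested. Timd4, a marker of self-renewing macrophages named after its values were seen, had a log2 difference of -0.14 (edgeR adjusted p = 0.672). Siglec1 and Clec10a, also named after their values were seen, rose 2.57-fold and 1.58-fold (0.0397 and 0.0486). Over the list 18 of 22 log2 differences were positive.

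**Figure D3:**
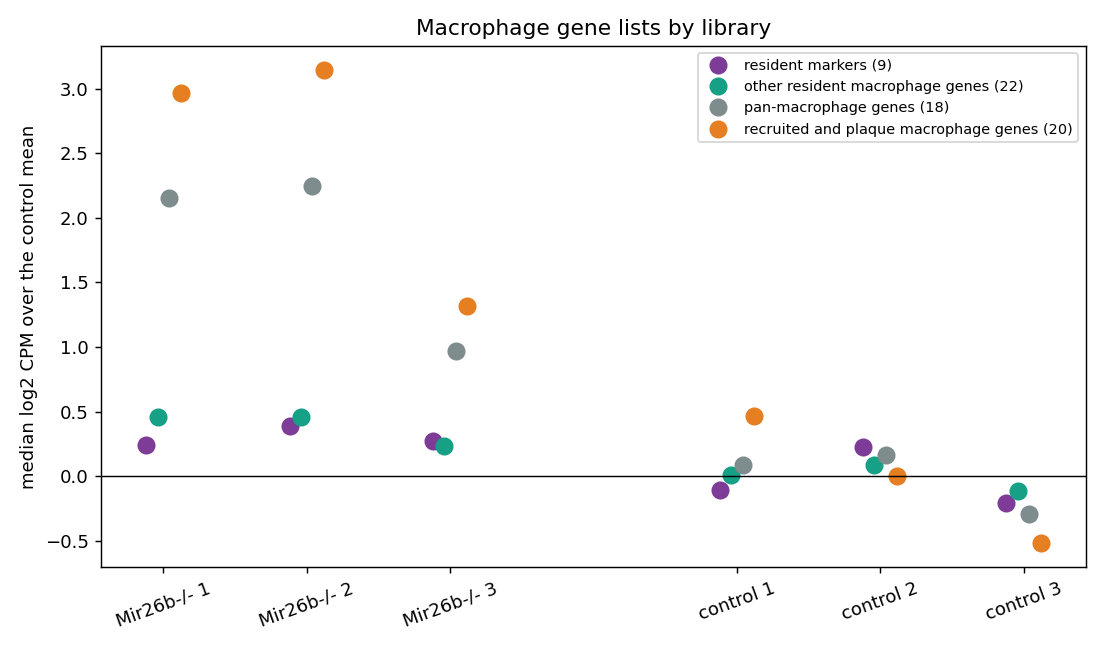
Median log2 CPM over the control mean in each library for the 9 resident markers, 22 other resident genes, 18 general and 20 recruited macrophage genes; each dot is 1 list in 1 library. In knockout replicate 3 the recruited list stood at 1.32, far below the other knockouts, while the resident markers stood at 0.28.

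The lists also differed in how the knockout libraries stood to each other. The median of the recruited list was 2.97, 3.15 and 1.32 in knockout replicates 1, 2 and 3, and that of the general macrophage list was 2.15, 2.25 and 0.97. The 9 resident markers had 0.24, 0.39 and 0.28 in the same libraries, and -0.11, 0.23 and -0.21 in control replicates 1, 2 and 3. Thus knockout replicate 3, low in recruited genes, was not low in resident markers, and the knockout medians of the markers lay just above that of control replicate 2. Knockout replicate 3 was the lowest knockout in Mrc1, F13a1 and Stab1. Among the markers Mrc1 had the widest ratio of highest to lowest knockout, 1.68, close to the 1.65 of Csf1r, which had 166, 179.8 and 109 CPM in knockouts and 75.3, 78.4 and 58.3 CPM in controls.

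Ratios within a library set each marker against a macrophage gene of the same library. The log2 ratio of Folr2 to Cd68 was -2.21, -2.33 and -0.57 in knockouts, against -0.27, 0.60 and 0.40 in controls, so that Folr2 was 3.86-fold lower relative to Cd68. For Lyve1 the ratio was -2.16, -1.89 and -0.06 in knockouts and 0.21, 1.10 and 1.08 in controls, which is 4.50-fold lower. All 9 markers had every knockout below every control, with falls relative to Cd68 between 2.68-fold for Mrc1 and 6.72-fold for Cbr2. Each gave an exact two-sided permutation p of 0.1, the smallest that 3 against 3 libraries can give. Since 95.9% of all tested rows were lower relative to Cd68 in the same sense, this ratio shows how far Cd68 moved and singles out no marker.

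**Figure D4:**
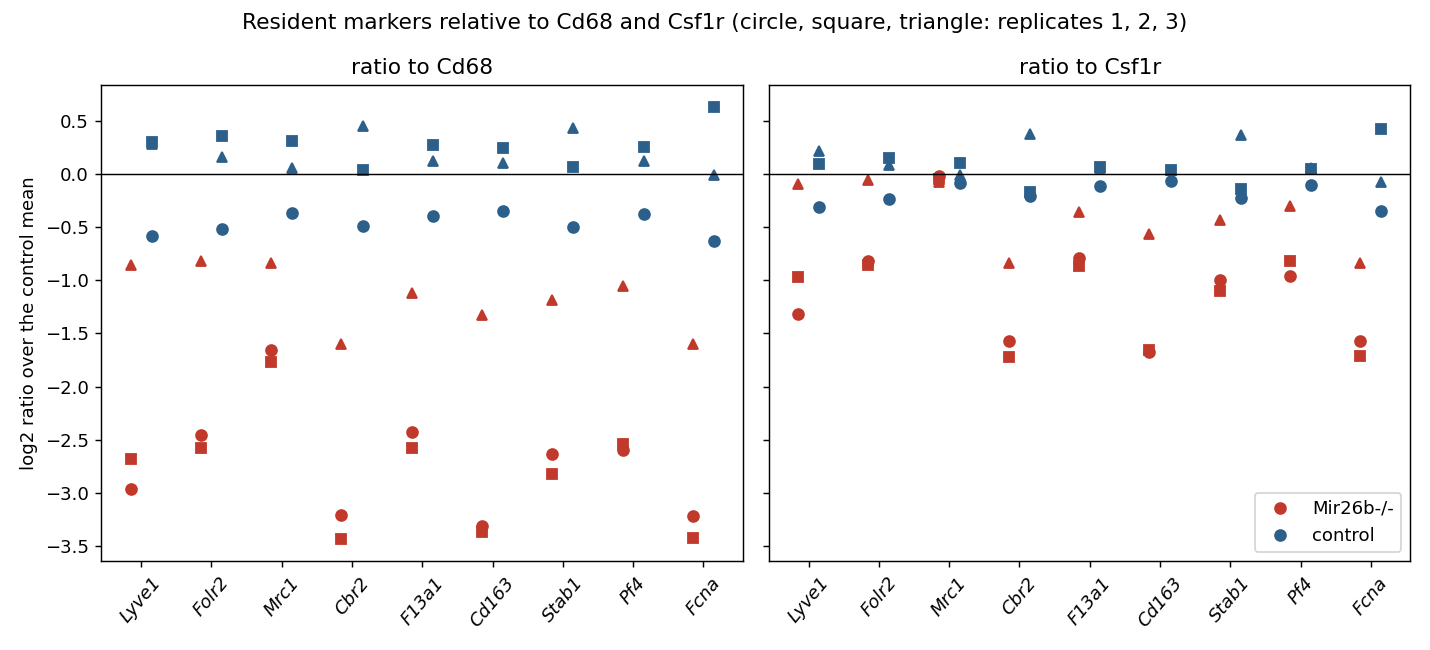
Log2 ratio of each resident marker to Cd68 (left) and to Csf1r (right), over the control mean, in each library; red marks knockouts, blue marks controls and shapes give the replicate. Every marker was lower relative to Cd68 in knockouts, whereas the ratio of Mrc1 to Csf1r was alike in both groups (difference -0.05).

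Relative to Csf1r the knockouts and controls overlapped in some markers. The Mrc1 ratio averaged -0.02 ± 0.03 in knockouts and 0.03 ± 0.09 in controls on the log2 scale (SD, n = 3 each), with an exact permutation p of 0.6. For Folr2 and Lyve1 the differences were -0.58 and -0.80, the groups overlapped through knockout replicate 3, and the exact p was 0.2 for each. The other 6 markers had all knockouts below all controls, with differences between -0.67 for F13a1 and -1.38 for Cbr2 (exact p of 0.1 each). Of all tested rows 82.5% were lower relative to Csf1r in every knockout. Against Adgre1, 7 of 9 markers were lower without overlap, where 85.7% of rows were, and again Folr2 and Lyve1 overlapped. Against the mean of the general macrophage list, 9 of 9 were lower without overlap, where 91.3% of rows were. Mrc1 was 1.28-fold lower relative to Adgre1 and 1.61-fold lower relative to that mean. As with Cd68, most rows were lower against each of these denominators, so the counts single out no marker.

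Some growth factor, cytokine and receptor genes of macrophages were higher, most of them receptor genes. Of 15 tested growth factors, cytokines and receptors 7 rose and 0 fell, with a median log2 difference of 0.97. Csf1, which encodes the main survival factor of resident macrophages and was named after its values were seen, rose 1.19-fold, to 115 ± 3.66 CPM in knockouts, against 96.5 ± 4.54 CPM in controls (SD, n = 3 each, edgeR adjusted p = 0.0414). Il10ra, the interleukin-10 receptor gene, rose 3.77-fold (0.0322) and Csf3r, the neutrophil growth factor receptor gene, 4.71-fold (0.0384). Among the 8 genes not called, 2 were also named after their values were seen. Il34 averaged 1.42 CPM in knockouts and 1.28 CPM in controls (0.765), and Csf2 averaged 0.503 and 0.457 CPM (0.881).

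Of the hyaluronan genes, which make, break down or bind the ligand of Lyve1, 3 of 11 rose and 0 fell, with a median of 0.92. Has1, a hyaluronan synthase gene, rose 2.52-fold (edgeR adjusted p = 0.0397). Hmmr, a hyaluronan-binding gene active in dividing cells, rose 2.45-fold (0.0267) and Stab2, a hyaluronan receptor related to Stab1, 5.40-fold (0.0304). Stab2 was low, at 4.12 ± 1.97 CPM in knockouts and 0.762 ± 0.216 CPM in controls (SD, n = 3 each). At an unadjusted p under 0.05, 1 gene of the hyaluronan list and 1 of the growth factor list were lower, and 0 of the recruited and other resident lists were. In these 4 lists DESeq2 called 0 lower, and called higher 7 hyaluronan, 10 growth factor, 15 recruited and 10 other resident genes.

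Among other cell types, 4 of 6 adventitial fibroblast genes rose and 0 fell, 2 of 6 blood endothelial genes rose and 0 fell, and 3 of 6 smooth muscle genes fell and 0 rose. Of 6 mast cell, 8 brown fat and 8 white adipocyte genes edgeR called 0, while 1 brown fat gene was lower at an unadjusted p under 0.05 and by DESeq2 and 0 genes of the other lists were called either way. Without knockout replicate 3, edgeR called 4 brown fat genes and 1 white adipocyte gene lower. Ucp1, which defines brown fat and was named after its values were seen, was then 4.47-fold lower (adjusted p = 0.0465). In the same libraries edgeR called Mrc1, F13a1 and Stab1 higher and Cbr2 lower, among 17.2% of rows called higher and 11.4% called lower. It then called higher 12 other resident, 10 growth factor, 6 hyaluronan and 4 lymphatic genes. Without any 1 other library it called 0 genes of all these lists, apart from at most 1 lymphatic gene. Among all tested rows it then called at most 52 higher and 22 lower. With the replicate number as a block, edgeR called Mrc1 and F13a1 higher and Cbr2 lower, among 7.45% of rows called higher and 4.02% called lower.

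The genes whose profile lay nearest to Folr2 over the 6 libraries were C2, Unc45b, Icosl, Zfp521 and Thy1, among 12858 candidates. Their root mean square distances lay between 0.0508 and 0.0831 in centred log2 CPM, where Folr2 itself spread by 0.299. Nearest to Lyve1 were Gap43, Hspa12a, Celf4, Vmn1r85 and Tonsl, at distances between 0.0942 and 0.111 with a spread of 0.27 for Lyve1. By the same measure Cd68 was between 0.794 (Mrc1) and 1.53 (Fcna) away from the 9 markers.

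Promoter windows of the called marker and of Folr2 are shown beside the level of Spi1, which encodes PU.1, a transcription factor of macrophages. Spi1, singled out after its values were seen, rose to 33.5 ± 15.4 CPM in knockouts, against 8.08 ± 2.15 CPM in controls (SD, n = 3 each, edgeR adjusted p = 0.0338). Windows run from 250 bases before to 50 bases after the start site in RefSeq (GRCm38), and 8 of 9 members had one. Capitals mark the ETS core GGAAGT, part of the PU.1 motif, on either strand. The Mrc1 window lies at chr2:14229164-14229463 on the plus strand. Folr2 had 2 windows, and the first, at chr7:101857141-101857440 on the minus strand, is printed.
Mrc1 window: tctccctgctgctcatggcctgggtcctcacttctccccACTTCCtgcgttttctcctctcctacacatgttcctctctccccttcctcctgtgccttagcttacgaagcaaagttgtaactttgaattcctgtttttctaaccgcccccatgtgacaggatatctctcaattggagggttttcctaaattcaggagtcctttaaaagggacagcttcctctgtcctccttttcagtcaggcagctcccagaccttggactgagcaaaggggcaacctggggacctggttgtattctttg
Folr2 window: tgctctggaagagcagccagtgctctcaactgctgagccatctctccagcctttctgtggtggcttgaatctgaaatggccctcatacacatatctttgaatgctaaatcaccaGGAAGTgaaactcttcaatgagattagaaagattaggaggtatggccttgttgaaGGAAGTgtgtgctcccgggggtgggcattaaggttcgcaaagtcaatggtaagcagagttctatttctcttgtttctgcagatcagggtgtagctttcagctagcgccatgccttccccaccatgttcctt
The Mrc1 window held 1 such core and the printed Folr2 window 2. The second Folr2 window, at chr7:101845282-101845581 on the minus strand, held 0. Windows of Pf4, Fcna and F13a1 also held the core, the last in its second window only, and those of Cd163, Cbr2 and Stab1 did not. Among 32851 RefSeq windows, 23.8% held it. The MAF motif TGCTGAC, which does not overlap the ETS core in these windows, was in the Fcna and Cbr2 windows and in 4.67% of all windows. These matches describe letters and do not show binding.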

How the data were processed

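RNA sequencing of 6 aortic samples was analysed, 3 knockouts and 3 controls grouped by sample title. The submitters' processing notes name GRCm38, kallisto 0.46.2, FastQC 0.11.8 and Trim Galore 0.6.5. The authors deposited estimated counts per gene; in each library between 61.7% and 62.8% of values below 50 are whole multiples, within 0.02, of a constant between 0.90 and 1.07, which no label explains. The second deposited table holds TPM rescaled by the authors, used as a signal because its columns sum to between 955527 and 1034723.

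Counts were rounded, filtered with filterByExpr (minimum 10), scaled with TMM and tested with edgeR 4.0.16 in R 4.3.3. Calls had a Benjamini-Hochberg adjusted p under 0.05 over all rows. Standard errors are the log2 difference over the root of F, and intervals are 95%. Log2 CPM used a prior count of 2. The fit was tested on simulated data. Depth was at least 51634139 counts per library, and replicate pairs differed by more than sampling noise (chi-square per gene of 12.2 or more).

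Members, gene lists and tests were chosen with earlier results of these data known. Beyond the 9 members, up to 4 genes of lowest p in each macrophage list and 3 in the others were named, with Cd68, Csf1r, Adgre1, Ccr2, Itgax and Trem2 always. The result of 1 gene that meets this rule is not reported here. Alternatives were RLE scaling, library size alone, other filters, DESeq2 1.42.0, limma 3.58.1 (voom and log2 TPM), a replicate block, a fat covariate, constants undone, rows summed by symbol and each library left out. Strand and exact read sharing are not given in the sources used here.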

Additional observations from a re-analysis of the deposited data

How the results depend on the processing

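Each member kept the direction of its log2 difference under all 18 alternatives; 142 of these values kept their side of the threshold, 8 lost the call (all Mrc1) and 12 gained one. The count of members called higher, 1 with edgeR, was 2 with the replicate block (Mrc1 and F13a1), 5 with DESeq2 and 0 with the fat covariate, and between 0 and 3 with 1 library left out. The count called lower, 0 with edgeR, was 1 (Cbr2) with the block and with DESeq2, and between 0 and 1 with 1 library left out. Same-numbered libraries had correlations of -0.09, 0.23 and 0.08 in their deviations from the group means. Other pairs of a knockout and a control lay between -0.21 and 0.12. With 3 libraries per group these values cannot decide whether the replicate numbers pair the samples. All-gene calls, 1131 higher and 667 lower, were 2086 and 1357 with DESeq2, 133 and 117 with the fat covariate, and 461 and 251 or 641 and 301 with limma on log2(TPM + 1) or log2(TPM + 0.1). With limma-voom 559 were higher and 514 lower. With 1 library left out they lay between 0 and 3051 higher and between 0 and 2028 lower; edgeR called 0 genes without control replicate 1 or 3, with 4056 at an unadjusted p under 0.05 in each. Mrc1 had an adjusted p of 0.0578 and 0.0518 with limma on log2 TPM at the same pseudocounts. The count of markers lower relative to Cd68 was 9 under all alternatives except Csf1r (6) and Adgre1 (7) as denominator. For Lyve1 the spread between libraries limits the result: its 95% interval of the fold ran between 0.903 and 1.66.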
